A study of Arabidopsis thaliana with 36 samples.

Results

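The RNA of leaf 6 of Arabidopsis thaliana was compared between an *atx1,3,4* triple mutant (TM) and wild type (WT) at T4, that is 4 days after the harvest at peak bolting of the mutant (T0) and at a plant age of 29 days. The comparison took in 9 of the 36 libraries of the experiment: 3 of WT Col-0, 3 of the isolate TM1 and 3 of the isolate TM2. Both isolates were homozygous for the same T-DNA alleles in 3 histone methyltransferase genes, *atx1* (SALK_149002), *atx3* (GABI_128H01) and *atx4* (SALK_060156), and the WT controls carried none of them. TM plants that bolted on days 24 and 25 were sampled, whereas WT plants of the same age were still vegetative, so genotype and bolting state cannot be told apart. No treatment was given, and senescence of TM leaves was detected in a separate phenotype analysis 2 days after T6. For each line and time point, leaf 6 of 10 plants was ground together and the powder was divided into 3 for libraries A, B and C. The libraries are therefore technical parts of 1 WT pool and of 2 TM pools, TM1 and TM2 share the WT pool as their control, and every p-value below measures only the spread between libraries of a pool. TM1 and TM2 came from different F1 plants of 1 cross and can differ in background mutations, so a gene was called only where both isolates differed from WT in the same direction.

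ATX enzymes belong to the Trithorax group and place methyl groups on lysine 4 of histone H3, a mark found near the start of transcribed genes. The floral repressor *FLC* is a well studied target of this mark, and early bolting follows when it is low. After bolting, older rosette leaves pass from carbon assimilation to the export of nitrogen and other nutrients, and NAC and WRKY transcription factors are among the best known regulators of that change.

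The libraries held between 4653963 and 8621434 reads, recovered from the whole steps of the deposited FPKM values (read number scaled to gene length and library size). Libraries of 1 group correlated at Pearson r of 0.978 to 0.987 on log2(FPKM + 1) across genes, and libraries of different groups at 0.960 to 0.976, so no library stood apart. Because BrAD-seq reads come from the 3′ end of transcripts, dividing by gene length makes levels of different genes hard to compare, and each gene is compared only with itself. Log2 changes are differences of log2(FPKM + 1), which understate the change of genes with low values.

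Of 19437 genes tested with limma, 154 were higher and 144 lower in both TM1 and TM2, at a Benjamini-Hochberg adjusted p under 0.05 and a change of at least 2-fold in each isolate. Together the 298 genes are 1.53% of all genes, 0.792% higher and 0.741% lower. In 153 of the 154 and 140 of the 144, all 6 TM libraries lay beyond all 3 WT libraries, which 8.85% of all genes did in the higher and 8.73% in the lower direction. With no fold limit, 796 genes were higher and 809 lower. TM1 alone had 480 genes past the threshold and TM2 alone 737, of which 298 moved the same way in both (62.1% of the TM1 genes and 40.4% of the TM2 genes) and 3 moved in opposite directions. The median change of all genes was 0.00 in both isolates.

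The targeted genes were read first. *ATX1* had FPKM values of 6.58, 4.98 and 4.25 in WT, 2.87, 3.41 and 3.58 in TM1 and 3.56, 3.48 and 3.44 in TM2, and *ATX4* had FPKM values of 5.48, 5.33 and 3.93 in WT, 2.73, 2.55 and 2.43 in TM1 and 3.83, 3.31 and 3.02 in TM2. All 6 TM libraries lay below the WT libraries for both genes, but the differences missed the threshold, with log2 changes of -0.54 in TM1 and -0.46 in TM2 for *ATX1* (adjusted p = 0.0593 and 0.0970) and -0.72 in TM1 and -0.43 in TM2 for *ATX4* (adjusted p = 0.00263 and 0.0796). *ATX3* had FPKM values of 4.66, 4.85 and 3.40 in WT, 5.74, 5.45 and 6.32 in TM1 and 6.19, 5.98 and 5.74 in TM2 and lay above WT in all 6 TM libraries, with log2 changes of 0.38 in TM1 and 0.40 in TM2. Reads from the 3′ end do not show whether a transcript runs through an insertion, so these levels do not check the alleles. Among 7 other genes of the H3K4 methylation machinery and 13 Polycomb group and H3K27 genes, 0 were called, which is near the 1.53% of all genes. *ATXR3*, of the first list, had mean FPKM of 22.6 in WT, 21.7 in TM1 and 23.1 in TM2, and the H3K27 demethylase gene *JMJ30* had 81.0 in WT, 83.6 in TM1 and 85.4 in TM2. Of these 20 genes, 1 passed an adjusted p of 0.05 in each isolate: *LHP1*, which encodes a reader of H3K27 methylation, was 0.51 higher in TM1 and 0.45 higher in TM2 on the log2 scale.

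**Figure D1:**
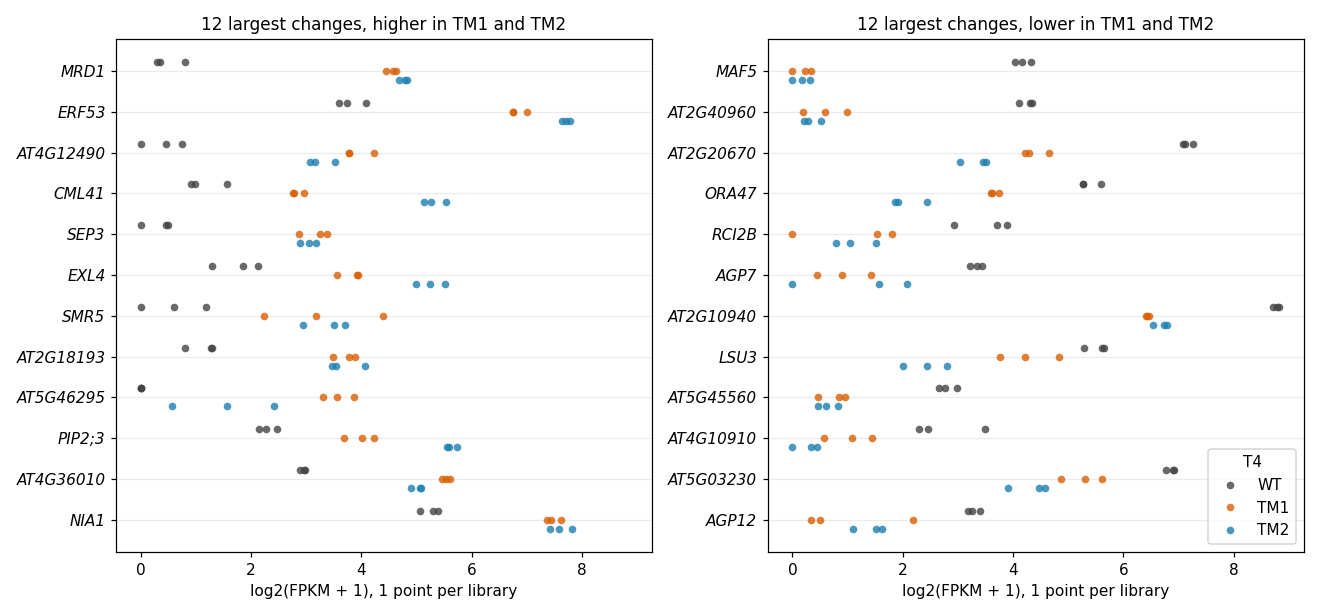
Levels at T4 of the 12 genes that rose most and the 12 that fell most, on a log2(FPKM + 1) axis with 1 point for each library of WT, TM1 and TM2. The genes were taken from called genes whose TM libraries all lay beyond all WT libraries, so the lack of overlap was set by the choice. *CML41*, *ORA47* and *LSU3* also show TM1 and TM2 apart from each other.

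The gene with the largest increase was *MRD1*, annotated only by its response to methionine over-accumulation. It had FPKM values of 0.278, 0.231 and 0.749 in WT, 20.8, 23.8 and 22.7 in TM1 and 27.4, 24.8 and 26.8 in TM2, so it was near absent from WT and clearly present in all 6 TM libraries. Its log2 change was 4.06 ± 0.18 in TM1 and 4.29 ± 0.18 in TM2 (SE) (limma, adjusted p = 1.6e-17 and 3.2e-18), and it was past the threshold at all 4 time points. *MRD1* overlaps AT1G53490 on the other strand over 1446 bases, and the strand setting of the read counting is not given in the sources used here, so reads of the pair cannot be told apart. *ERF53*, an AP2/ERF transcription factor of the drought response, had FPKM values of 12.4, 15.9 and 11.1 in WT, 106, 126 and 106 in TM1 and 208, 218 and 199 in TM2. It stood 8.61-fold above WT in TM1 and 15.9-fold above it in TM2, so the rise was larger in TM2. AT4G12490, of a lipid-transfer protein family whose neighbouring copies are closely similar and may share reads, had FPKM values of 0, 0.367 and 0.681 in WT, 17.8, 12.7 and 12.8 in TM1 and 7.96, 7.44 and 10.5 in TM2. *CML41*, which encodes a calmodulin-like calcium sensor, had FPKM values of 1.97, 0.877 and 0.976 in WT, 6.79, 5.88 and 5.76 in TM1 and 37.2, 45.2 and 34.2 in TM2, so that TM1 and TM2 were themselves apart. *SMR5*, a cyclin-dependent kinase inhibitor induced by oxidative stress, rested on few reads, 0 to 2 in the WT libraries, 6 to 21 in TM1 and 11 to 20 in TM2. It had FPKM values of 0.516, 1.28 and 0 in WT, 20.1, 3.69 and 8.10 in TM1 and 6.65, 10.4 and 12.0 in TM2, its call ended without TM1 replicate A (log2 change of 2.11 in TM1, adjusted p = 0.0516), and the gene overlaps AT1G07510 on the other strand. *EXL4*, an EXORDIUM-like gene, had FPKM values of 1.46, 3.37 and 2.64 in WT, 10.8, 14.1 and 14.4 in TM1 and 30.7, 44.8 and 37.0 in TM2, and *PIP2;3*, a plasma membrane aquaporin gene whose reads may be shared with the near-identical *PIP2;2*, had FPKM values of 4.55, 3.40 and 3.85 in WT, 11.8, 15.1 and 17.8 in TM1 and 52.2, 47.2 and 46.1 in TM2. In both genes the isolates differed, with TM2 above TM1 (adjusted p = 2.5e-05 and 8.4e-08). The rest of the 12 were AT2G18193, the thaumatin family gene AT4G36010, the uncharacterized AT5G46295, and *SEP3* and *NIA1*, which are described below. AT5G46295 was listed at 0 in all 3 WT libraries, and its call ended without TM2 replicate A (log2 change of 1.07 in TM2, adjusted p = 0.0862).

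At the other end, *MAF5*, a repressor of flowering related to *FLC*, had FPKM values of 15.5, 17.0 and 19.0 in WT, 0, 0.258 and 0.170 in TM1 and 0.127, 0 and 0.251 in TM2. No TM library held more than 2 of its reads, so WT was at least 34.3-fold higher than TM1 and at least 39.5-fold higher than TM2, counted against a floor of 3 reads per library. AT2G40960, annotated as an R3H single-stranded nucleic acid binding protein, had FPKM values of 19.4, 16.2 and 18.8 in WT, 0.513, 0.990 and 0.145 in TM1 and 0.216, 0.155 and 0.429 in TM2, and its log2 change was -3.66 ± 0.26 in TM1 and -3.92 ± 0.26 in TM2 (SE). Both genes were lower at all 4 time points. AT2G20670, a sugar phosphate exchanger candidate, had FPKM values of 153, 138 and 134 in WT, 24.1, 18.6 and 17.64 in TM1 and 10.0, 7.17 and 10.3 in TM2, 7.04-fold less in TM1 and 15.4-fold less in TM2 than in WT. AT2G10940, of the lipid-transfer protein superfamily, had mean FPKM of 436 in WT, 85.4 in TM1 and 102 in TM2. The other members were *ORA47*, *RCI2B*, *AGP7*, *AGP12*, *LSU3*, AT5G45560, AT4G10910 and AT5G03230, a gene annotated as a senescence regulator that had FPKM values of 119.8, 119 and 108 in WT, 47.8, 38.7 and 28.2 in TM1 and 21.1, 14.1 and 23.0 in TM2.

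Flowering regulators formed the group with the highest share of called genes among the lists. The paper had already reported several of them as differing in these data, among them *FLC*, *FT*, *SEP1*, *SEP3*, *MAF4*, *MAF5* and *CIB1*. Of 15 measured floral repressors 5 were lower and 0 higher, and of 14 floral promoters and photoperiod output genes 4 were higher and 1 lower. Over all genes 0.792% were higher and 0.741% lower. The medians were -0.36 in TM1 and -0.35 in TM2 for the repressors and 0.33 in TM1 and 0.45 in TM2 for the promoters, against 0.00 for all genes. *FLC* itself was low in every library. It had FPKM values of 0.871, 2.71 and 2.39 in WT, 0, 0.130 and 0 in TM1 and 0, 0 and 0.506 in TM2, with at most 20 reads in WT and at most 1 read in a TM1 library, so WT was at least 3.96-fold higher than TM1 by the same floor. *MAF4*, next to *MAF5* on chromosome 5 and similar to it in sequence, had mean FPKM of 3.93 in WT, 0.237 in TM1 and 0.241 in TM2 and was called lower.

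The other lower repressors were *TEM1* and *TEM2*, which encode RAV factors that bind and repress *FT*. *TEM1* had FPKM values of 37.9, 34.7 and 36.1 in WT, 14.8, 15.9 and 16.0 in TM1 and 19.2, 14.1 and 17.9 in TM2 and *TEM2* had FPKM values of 23.3, 20.2 and 22.8 in WT, 8.74, 9.35 and 7.64 in TM1 and 4.15, 3.97 and 2.097 in TM2. Both were below WT in all 6 TM libraries, but the *TEM1* call ended without TM2 replicate B (log2 change of -0.93 in TM2). *FT*, the mobile flowering signal made in leaf veins, had FPKM values of 5.97, 4.90 and 3.13 in WT, 14.1, 13.1 and 11.1 in TM1 and 17.8, 11.2 and 13.7 in TM2. It was 2.73-fold and 3.05-fold higher, with log2 changes of 1.31 ± 0.26 in TM1 and 1.44 ± 0.26 in TM2 (SE) (adjusted p = 6.2e-04 and 1.3e-04). *SEP3* and *SEP1*, MADS box genes of floral organ identity, were near 0 in WT leaves and measurable in TM leaves. *SEP3* had FPKM values of 0.403, 0.376 and 0 in WT, 6.34, 9.36 and 8.54 in TM1 and 8.03, 7.28 and 6.43 in TM2, and *SEP1* rose from a mean of 0.123 to 2.26 and 1.78. *FUL*, a MADS box gene that promotes the floral transition, had FPKM values of 2.98, 3.20 and 2.01 in WT, 12.6, 11.9 and 17.598 in TM1 and 12.6, 10.9 and 8.59 in TM2. *SOC1* was higher in all 6 TM libraries with mean FPKM of 24.9 in WT, 40.5 in TM1 and 33.7 in TM2, which is under the 2-fold limit. *CIB1*, a partner of cryptochrome 2 in the activation of *FT*, was lower instead, with FPKM values of 32.3, 29.8 and 27.3 in WT, 8.36, 8.23 and 11.1 in TM1 and 5.81, 6.54 and 7.61 in TM2, and shares 1784 bases with AT4G34540 on the same strand, which was also called lower. None of 8 flower organ markers, among them *AP3*, *PI* and *AG*, and none of 6 shoot apex markers was among the genes tested.

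Both nitrate reductase genes, *NIA1* and *NIA2*, were higher in TM leaves at T4. Nitrate reductase carries out the first step from nitrate to ammonium, and nitrite reductase, encoded by *NIR1*, the second. *NIA1* had FPKM values of 38.2, 40.7 and 32.3 in WT, 173, 196 and 163 in TM1 and 170.3, 225 and 189.6 in TM2. All TM libraries lay above all WT libraries, 4.78-fold higher on average in TM1 and 5.26-fold in TM2. The log2 changes were 2.23 ± 0.14 in TM1 and 2.36 ± 0.14 in TM2 (SE) (limma, adjusted p = 8.5e-14 and 8.2e-15). An exact two-sided permutation over the 9 libraries gave p = 0.0119, the smallest that 84 arrangements allow. *NIA1* was named from called genes whose TM libraries all lay beyond all WT libraries. That choice largely sets the permutation p, and the libraries are technical parts of pools, so no conclusion is drawn from it. *NIA2* had FPKM values of 147, 141 and 153 in WT, 339.5, 349 and 337 in TM1 and 381, 443 and 402 in TM2, and its log2 change was 1.21 ± 0.10 in TM1 and 1.47 ± 0.10 in TM2 (SE) (adjusted p = 5.5e-11 and 2.4e-13). *NIR1* lay above WT in all 6 TM libraries by less than 2-fold, with mean FPKM of 179 in WT, 289.7 in TM1 and 243 in TM2 and an adjusted p of 3.4e-06 and 0.00119.

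Across the 19 measured genes of nitrogen uptake, assimilation and remobilisation, 2 were called higher and 1 lower, against 0.792% and 0.741% of all genes, and 7 had all 6 TM libraries above WT, against 8.85% of all genes. *GLN1;1*, a cytosolic glutamine synthetase, and *NRT1.7*, which loads nitrate into the phloem of old leaves, were among the 7, with log2 changes of 0.93 in TM1 and 0.49 in TM2 and of 0.82 in TM1 and 1.21 in TM2. *NRT3.1*, a partner protein of high-affinity nitrate transporters that is on none of the lists and was chosen after its values were seen, had FPKM values of 4.93, 6.00 and 4.52 in WT, 14.7, 13.3 and 11.7 in TM1 and 15.6, 17.7 and 17.0 in TM2 and was called higher. The lower gene was *ASN1*, an asparagine synthetase known for its induction in the dark and repression by sugar. It had FPKM values of 5.25, 4.43 and 7.03 in WT, 0.695, 0.838 and 1.3999 in TM1 and 0.824, 0.315 and 0.436 in TM2, which is 5.70-fold less in TM1 and 10.6-fold less in TM2.

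The difference in nitrate reductase changed with time. The mean log2 difference of both isolates from WT was -0.36 (T0), -0.36 (T2), 2.30 (T4) and 1.82 (T6) for *NIA1*, and -0.28 (T0), -0.26 (T2), 1.34 (T4) and 1.29 (T6) for *NIA2*. The effect at T4 exceeded that at T2 by 2.65 ± 0.17 (SE) for *NIA1* and 1.60 ± 0.12 for *NIA2* (limma interaction contrast, adjusted p = 3.3e-13 and 1.4e-11), whereas T4 and T6 did not differ past the threshold (adjusted p = 0.236 and 0.956). WT means of *NIA1* at T0, T2, T4 and T6 were 41.1, 68.9, 37.1 and 25.1 FPKM, and those of TM1 were 38.3, 44.8, 177 and 88.1 and of TM2 26.7, 64.7, 195 and 93.7.

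**Figure D2:**
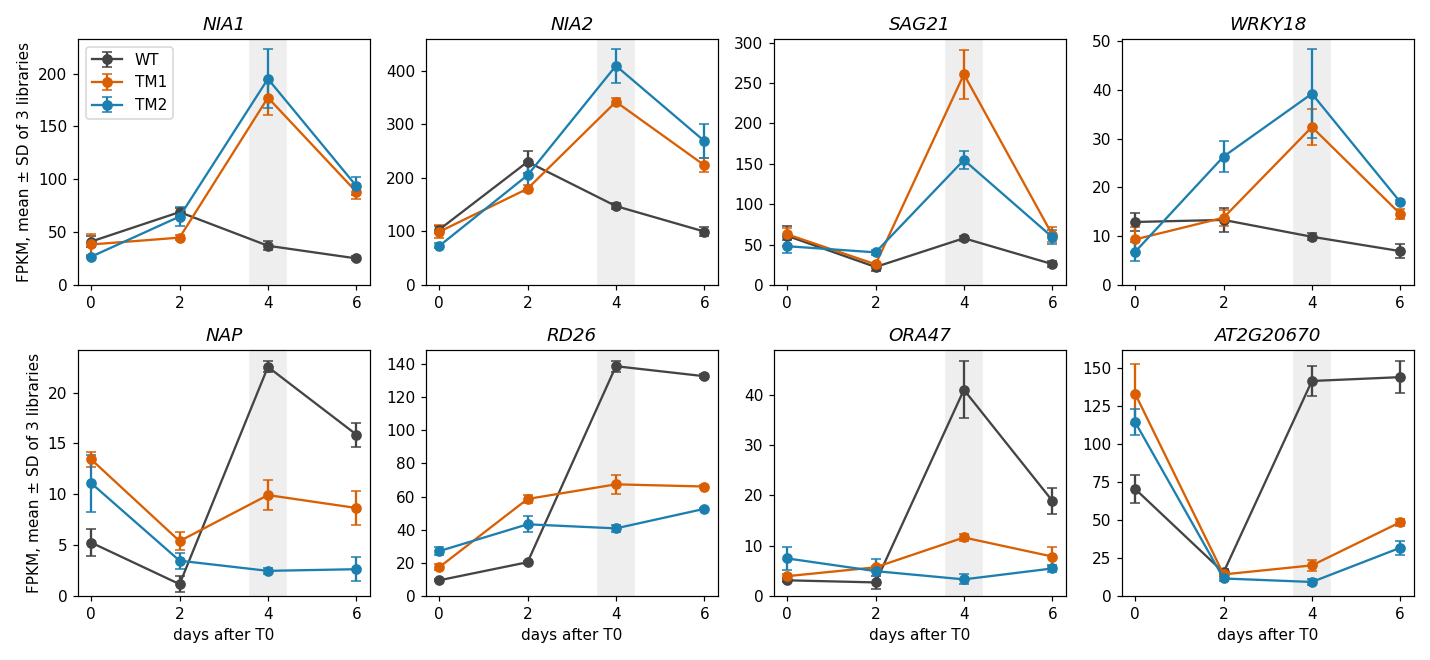
FPKM of 8 genes at T0, T2, T4 and T6 in WT, TM1 and TM2, as mean ± SD of the 3 libraries of a pool, with T4 shaded. *NIA1*, *NIA2*, *SAG21* and *WRKY18* are highest in TM at T4. *NAP*, *RD26*, *ORA47* and AT2G20670 are on average lower in TM than in WT at T4 and T6. At T0 and T2, *NAP* and *RD26* are higher in TM than in WT.

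*NAP* and *RD26* were the 2 genes called, both lower, among 18 measured senescence-linked NAC genes, whose medians were 0.28 in TM1 and -0.24 in TM2. *NAP* promotes leaf senescence, and *RD26* (NAC072) is a NAC factor of drought and abscisic acid response that is also tied to senescence. *NAP* had FPKM values of 22.5, 23.1 and 22.02 in WT, 10.4, 8.30 and 11.1 in TM1 and 2.35, 2.84 and 2.205 in TM2, so WT exceeded TM1 by 2.27-fold and TM2 by 9.15-fold at T4. *RD26* had FPKM values of 139.9, 135 and 141 in WT, 73.3, 67.1 and 61.9 in TM1 and 42.3, 41.8 and 38.3 in TM2, with log2 changes of -1.03 ± 0.09 in TM1 and -1.74 ± 0.09 in TM2 (SE) (adjusted p = 1.2e-10 and 1.9e-16). No TM library overlapped WT for either gene, and TM2 lay below TM1 in both. The *RD26* call ended without TM1 replicate C, where the log2 change in TM1 was -0.97, just under the 2-fold limit.

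At T0 and T2 the sign of the difference was the reverse. The mean log2 difference from WT was 1.09 (T0), 1.37 (T2), -1.94 (T4) and -1.54 (T6) for *NAP*, and 1.12 (T0), 1.26 (T2), -1.39 (T4) and -1.16 (T6) for *RD26*. From T2 to T4 the effect moved by -3.31 ± 0.27 and -2.65 ± 0.10 (SE), with adjusted p = 1.7e-10 and 3.0e-18. The WT levels moved most: *RD26* means in WT were 9.42, 20.3, 139 and 133 FPKM at T0, T2, T4 and T6, against 17.3, 58.6, 67.4 and 66.1 in TM1 and 27.0, 43.3, 40.8 and 52.6 in TM2. The T4 and T6 values of WT came from separate pools of plants, and both were high. Of the 18 genes, 0 were called higher at T4, while 7 were higher at T2 and 2 at T0. Of all genes, 0.792% were higher and 0.741% lower at T4, and 1.74% were higher at T2 and 0.869% at T0. The 0 of 18 at T4 is therefore near the share over all genes. *ORE1* had mean FPKM of 4.14 in WT, 7.34 in TM1 and 2.87 in TM2 and was not called.

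*NAP* and *RD26* belonged to a small set that was past the threshold in both isolates with opposite signs at T4 and at another time point. This set held 11 of the 298 genes, 10 lower at T4 and higher at T0 or T2, and 1 the reverse, and its members were chosen by their values. Beside the NAC genes it held *RCI2B*, a small membrane protein gene of the cold response, *TZF5*, a tandem zinc finger protein, *KMD3*, an F-box protein, *ATL8*, a RING ubiquitin ligase, *OXS3*, a stress tolerance gene, the lipase family gene AT3G16370, the RING gene AT1G49210 and AT1G51402. *RCI2B* had FPKM values of 6.66, 13.8 and 12.1 in WT, 0, 1.89 and 2.49 in TM1 and 1.86, 1.07 and 0.736 in TM2, and its mean log2 difference was 0.14 (T0), 2.59 (T2), -2.396 (T4) and -1.996 (T6). The *RCI2B* call at T4 ended with a pseudocount of 0.1 (adjusted p = 0.0598 in TM2). For *TZF5* the differences were 1.11 (T0), 0.27 (T2), -1.98 (T4) and -0.84 (T6), and for *KMD3* 1.399 (T0), 0.57 (T2), -1.31 (T4) and -0.77 (T6). AT4G12490 was the reverse, with -0.03 (T0), -2.26 (T2), 3.19 (T4) and 3.52 (T6). *KMD3*, AT1G51402 and AT3G16370 each overlap a gene on the other strand.

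*ORA47*, an AP2/ERF activator of jasmonate biosynthesis that overlaps AT1G74929 on the other strand, followed the same course without being past the threshold earlier. It had FPKM values of 47.5, 37.7 and 37.6 in WT, 12.4, 11.3 and 11.1 in TM1 and 4.44, 2.76 and 2.64 in TM2 at T4, 3.53-fold less in TM1 and 12.5-fold less in TM2, and its mean log2 difference was 0.64 (T0), 0.79 (T2), -2.52 (T4) and -1.41 (T6). WT means were 3.096, 2.68, 41.0 and 18.9 FPKM over the 4 time points. It was 1 of 2 genes called among the 26 measured jasmonate genes, against 1.53% of all genes called in either direction. The other, the defensin gene *PDF1.2*, was higher on few reads, with mean FPKM of 0.265 in WT, 2.43 in TM1 and 3.86 in TM2, and its call ended without WT replicate B or C and without TM1 replicate A or C (adjusted p in TM1 of 0.0654 to 0.0870).

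Several WRKY genes were higher in TM leaves. Among 14 measured senescence-linked WRKY genes 2 were higher and 0 lower. Across the 53 measured genes named WRKY, a family chosen after its values were seen, 5 were higher and 0 lower. The shares over all genes were 0.792% higher and 0.741% lower. The 2, *WRKY47* and *WRKY48*, were already listed by the paper as bolting-associated from these data. Their share is therefore not independent support. With no fold limit, 6 of the 14 were higher and 1, *WRKY70*, was lower. The summed level of the 14 was nonetheless lower in every TM library than in any WT library. That of the 53 was higher than WT in TM1 and lower in TM2. *WRKY48* had FPKM values of 1.68, 2.17 and 1.64 in WT, 9.83, 11.2 and 11.7 in TM1 and 14.7, 14.7 and 15.0 in TM2, and *WRKY47* had FPKM values of 6.26, 7.80 and 7.74 in WT, 27.1, 20.2 and 29.6 in TM1 and 41.3, 40.1 and 50.5 in TM2. *WRKY18*, a regulator of defence, had FPKM values of 10.06, 9.04 and 10.5 in WT, 34.0, 35.1 and 28.1 in TM1 and 49.6, 35.5 and 32.6 in TM2, and *WRKY17* and *WRKY27* rose by 1.25 in TM1 and 1.21 in TM2 and by 1.46 in TM1 and 1.72 in TM2 on the log2 scale. In all 5 genes each TM library lay above each WT library, as in 153 of the 154 genes called higher. *WRKY75*, a marker of senescence, was not detectable at this depth in WT, with 0 reads in each library and at most 1 read in a TM library. *SAG12* was not among the genes tested. *SAG21*, a late embryogenesis abundant protein gene of the oxidative stress response, was the only one of 12 measured SAG, SEN and nitrilase markers to be called. It had FPKM values of 54.2, 59.4 and 60.005 in WT, 256, 233 and 293 in TM1 and 166, 144 and 154 in TM2, 4.51-fold more in TM1 and 2.67-fold more in TM2.

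Glutathione S-transferases conjugate toxic compounds to glutathione, and the family was chosen after its values were seen. Of 30 measured tau and phi class genes 6 were higher and 0 lower, against 0.792% and 0.741% of all genes. The 6 were *GSTU1*, *GSTU4*, *GSTU7*, *GSTU24*, *GSTF6* and *GSTF7*. *GSTF6* and *GSTF7* are near-identical neighbours, so that their reads may be shared. *GSTU7* had FPKM values of 31.8, 36.0 and 38.6 in WT, 72.4, 75.1 and 69.0 in TM1 and 96.0, 93.6 and 95.7 in TM2 and *GSTF7* had FPKM values of 41.5, 37.1 and 39.5 in WT, 91.5, 95.4 and 97.1 in TM1 and 97.2, 79.9 and 88.0 in TM2. *GSTU7* lost its call without WT replicate A or TM1 replicate B (log2 change in TM1 of 0.93 and 0.98), and *GSTF6* without WT replicate C (0.97 in TM2). Of 14 measured salicylic acid and defence genes 1 was called higher, against 0.792% of all genes. It was *PAD3*, the last enzyme of camalexin synthesis, with FPKM values of 0.978, 0.696 and 0.564 in WT, 3.24, 2.75 and 1.76 in TM1 and 4.75, 3.29 and 1.95 in TM2. That call ended without WT replicate C, TM1 replicate A or TM1 replicate B, where the log2 change in TM1 was 0.94, 0.89 and 0.98. The median of the list was 0.53 in TM1 and 0.31 in TM2, and 8 of its 14 genes had all TM libraries above WT, against 8.85% of all genes. *PR5* had FPKM values of 13.4, 11.5 and 9.01 in WT, 26.1, 22.01 and 21.8 in TM1 and 32.1, 31.6 and 29.4 in TM2, with log2 changes of 0.99 in TM1 and 1.397 in TM2, and missed the 2-fold limit in TM1.

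The W-box, the DNA motif bound by WRKY factors, was looked for in the 250 bases before the annotated start of each gene (RefSeq, build TAIR10.1). TTGACC or TTGACT, on either strand, stood in 58 of 154 promoters of higher genes (37.7%) and in 33 of 144 of lower genes (22.9%), against 5397 of 19328 (27.9%) of all genes in the table with a promoter. The G-box CACGTG stood in 8.44% of higher, 9.03% of lower and 7.44% of all promoters, and the evening element AAATATCT in 3.90%, 8.33% and 5.03%. The other motifs searched were the GCC-box GCCGCC (2.60%, 0.694% and 2.04%), the core CCGAC of the DRE (16.2%, 14.6% and 13.2%) and the element TATCCA (14.9%, 16.0% and 14.3%). The shares are descriptions of the letters in these windows, and a match is not evidence of binding. Promoters of *SAG21*, *WRKY17* and *NIA2*, which were higher, and of *NAP* and *COR15A*, which were lower, are shown 5′ to 3′ with W-boxes and G-boxes in capitals. These 5 were chosen after their motifs were seen, as examples of each motif, and do not stand for their groups: most promoters of higher genes held no W-box.
SAG21, chr4:1047106-1047355, minus strand: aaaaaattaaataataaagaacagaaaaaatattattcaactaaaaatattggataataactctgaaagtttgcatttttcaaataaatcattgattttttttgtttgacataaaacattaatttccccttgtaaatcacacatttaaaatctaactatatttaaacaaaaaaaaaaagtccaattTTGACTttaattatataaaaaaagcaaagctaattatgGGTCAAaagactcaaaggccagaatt
WRKY17, chr2:10439470-10439719, minus strand: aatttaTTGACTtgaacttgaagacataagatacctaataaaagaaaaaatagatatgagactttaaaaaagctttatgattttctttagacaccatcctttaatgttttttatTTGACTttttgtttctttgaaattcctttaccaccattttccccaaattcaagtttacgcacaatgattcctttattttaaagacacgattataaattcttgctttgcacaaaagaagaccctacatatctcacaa
NIA2, chr1:14158202-14158451, plus strand: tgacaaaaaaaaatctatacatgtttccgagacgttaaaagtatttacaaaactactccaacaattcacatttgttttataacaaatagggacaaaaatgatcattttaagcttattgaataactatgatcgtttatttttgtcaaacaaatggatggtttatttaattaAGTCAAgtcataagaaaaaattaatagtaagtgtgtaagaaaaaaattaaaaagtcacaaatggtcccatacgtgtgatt
NAP, chr1:26121830-26122079, plus strand: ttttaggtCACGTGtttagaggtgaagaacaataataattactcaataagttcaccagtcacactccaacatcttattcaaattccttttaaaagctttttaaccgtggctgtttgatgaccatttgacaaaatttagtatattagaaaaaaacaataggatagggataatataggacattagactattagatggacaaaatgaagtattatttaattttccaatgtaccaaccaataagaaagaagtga
COR15A, chr2:17712331-17712580, minus strand: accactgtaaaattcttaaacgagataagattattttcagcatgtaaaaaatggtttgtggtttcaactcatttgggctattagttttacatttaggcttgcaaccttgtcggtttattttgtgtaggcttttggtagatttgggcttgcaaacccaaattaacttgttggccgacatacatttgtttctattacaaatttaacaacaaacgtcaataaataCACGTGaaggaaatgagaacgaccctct
*SAG21* and *WRKY17* each had 2 W-boxes and *NIA2* had 1, while *NAP* and *COR15A* had none and 1 G-box each.

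**Figure D3:**
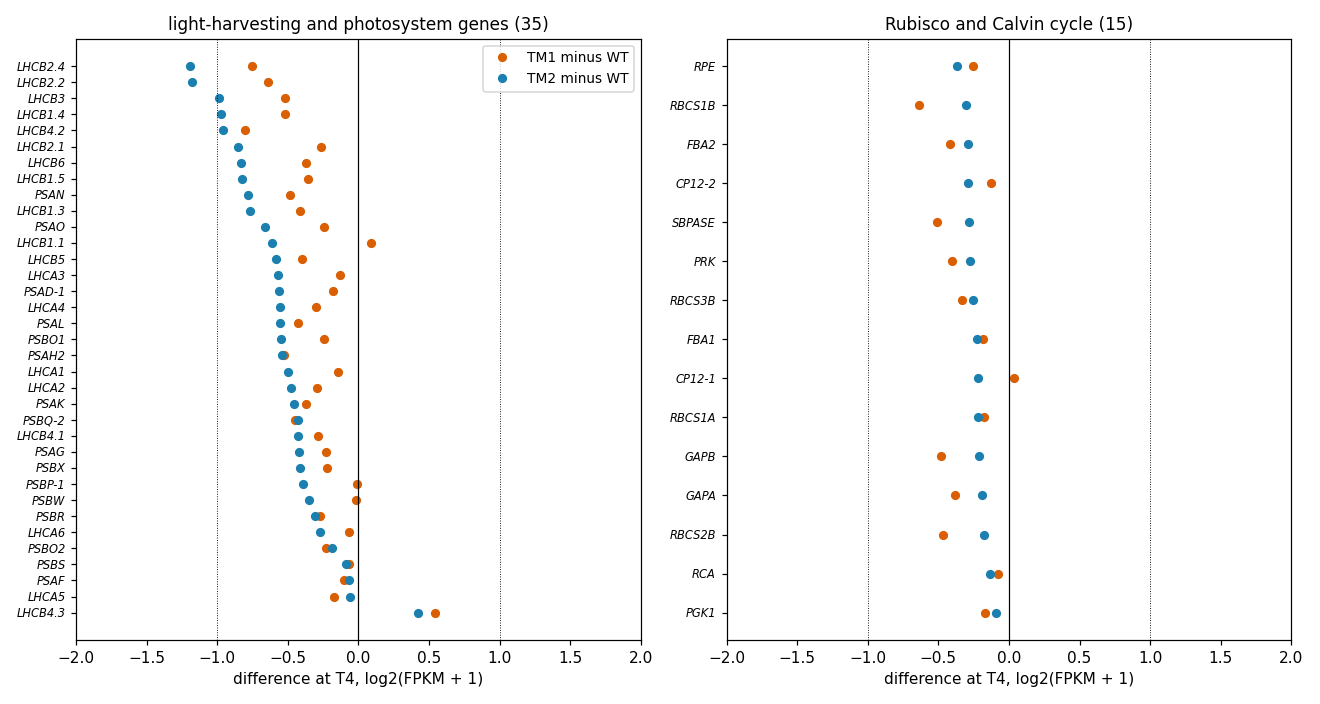
Difference from WT at T4 on the log2(FPKM + 1) scale for each of 35 light-harvesting and photosystem genes and 15 Rubisco and Calvin cycle genes, with TM1 and TM2 as separate points. Dotted lines mark the 2-fold limit. The points lie between 0 and the lower limit for most genes, and TM2 reaches past it for *LHCB2.4* and *LHCB2.2*.

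Photosynthesis genes were lower by a small amount in many members at once, and none was called. Of 35 measured light-harvesting and photosystem genes, 33 had a negative change in both isolates, 24 had all 6 TM libraries below WT, against 8.73% of all genes, and 16 were below an adjusted p of 0.05 in each isolate. The medians were -0.27 in TM1 and -0.55 in TM2, against 0.00 for all genes. *LHCB1.3*, an antenna protein of photosystem II, had FPKM values of 7517, 7621 and 8888 in WT, 5665, 6475 and 5864 in TM1 and 4790.0, 4588 and 4689.7 in TM2. *LHCB2.2* had 149.7 ± 14.2 FPKM (SD, n = 3) in WT against 95.9 ± 10.7 in TM1 and 65.3 ± 2.15 in TM2, and *LHCB3* had 758 ± 26.4, 529.6 ± 28.5 and 382 ± 17.2. Copies of *LHCB1* and *LHCB2* are closely similar, and reads may be divided among them. *LHCB4.3*, at under 1 FPKM in WT, was the 1 member with a positive change in both. Of the 15 Rubisco and Calvin cycle genes, 14 had a negative change in both isolates, with medians of -0.33 in TM1 and -0.22 in TM2. *RBCS1A*, a small subunit of Rubisco, had mean FPKM of 2513 in WT, 2227 in TM1 and 2164 in TM2. Of 12 measured chlorophyll breakdown genes 0 were called, which is near the 1.53% of all genes, with medians of 0.12 in TM1 and -0.05 in TM2. The median of the mean TM effect over the photosystem list was -0.08 (T0), 0.22 (T2), -0.40 (T4) and -0.36 (T6), and that over all genes was 0.04, 0.09, 0.00 and 0.07.

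Markers of the cell types of a leaf were read beside these groups. The summed level of the 6 mesophyll markers was 14054 to 15824 FPKM in the WT libraries, 11500.1 to 12463 in TM1 and 10079 to 10482 in TM2. All TM libraries lay below WT in 5 of the 6 markers, against 8.73% of all genes. These markers are themselves mostly photosynthesis genes. The sum of the 7 guard cell markers was also lower, at 491 to 531 FPKM in WT, 308 to 338 in TM1 and 323 to 331 in TM2, and nearly all of it came from *TGG1*, a myrosinase gene. Of the 6 mesophyll markers and the 7 guard cell markers, 0 were called. The same held for 6 markers of trichomes and epidermis, 8 of phloem and bundle, 7 of xylem and fibre and 2 of root. With 1.53% of all genes called, 0 in sets of this size is near the share over all genes. Fewer cells of a type and less RNA per cell cannot be told apart in leaf pools, and the part of cell makeup in the results was not tested.

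Cell wall and growth genes moved in both directions. Of 36 measured genes of leaf growth and cell wall expansion, 3 were higher and 4 lower, against 0.792% and 0.741% of all genes. The lower genes were the expansins *EXPA11* and *EXPA3*, which loosen walls during growth, and the xyloglucan endotransglucosylases *XTH4* and *XTH9*. *EXPA11* had FPKM values of 67.6, 69.2 and 65.7 in WT, 19.2, 27.3 and 19.7 in TM1 and 19.5, 25.2 and 19.4 in TM2, 3.06-fold less in TM1 and 3.16-fold less in TM2, and its mean log2 difference was 0.02 (T0), -0.59 (T2), -1.61 (T4) and -1.69 (T6). The *XTH4* call ended without WT replicate A (-0.95 in TM1) or TM1 replicate A (-0.93), and that of *XTH9*, at mean levels of 5.83 in WT, 2.06 in TM1 and 2.15 in TM2 FPKM, when any 1 of 6 libraries was left out, which were WT replicate A or B, TM1 replicate B or C, or TM2 replicate A or C (adjusted p of 0.0573 to 0.123 in the isolate that failed). The higher genes were *PIP2;3*, *EXL4* and *PSK4*, a precursor of the growth peptide phytosulfokine, which had FPKM values of 68.8, 73.7 and 64.6 in WT, 188, 175 and 188 in TM1 and 198, 140.0 and 138 in TM2.

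Arabinogalactan proteins, heavily glycosylated proteins of the cell wall and membrane, held more lower than higher calls, in a family chosen after its values were seen. Of 38 measured genes named FLA or AGP, 7 were lower and 1 higher, against 0.741% and 0.792% of all genes, and 16 had all TM libraries below WT, against 8.73% of all genes. *FLA2* had FPKM values of 33.6, 33.1 and 37.0 in WT, 10.8, 15.2 and 11.1 in TM1 and 15.8, 16.0 and 16.4 in TM2, and *FLA9* had FPKM values of 26.6, 19.0 and 17.8 in WT, 7.27, 7.48 and 5.46 in TM1 and 8.54, 8.47 and 8.33 in TM2. *AGP7* and *AGP12* fell from means of 9.11 and 8.70 FPKM in WT to 0.970 and 1.41 in TM1. The *AGP12* call ended with a pseudocount of 0.1 (limma, adjusted p = 0.0651 in TM2). The calls of *AGP21* (without WT replicate B or TM1 replicate B, -0.93 and -0.92 in TM1), *AGP26* (without TM1 replicate A, -0.98) and *FLA1* (without WT replicate B, -0.97) each rested on single libraries. The exception was *AGP5*, with FPKM values of 5.47, 6.57 and 6.09 in WT, 19.6, 32.6 and 44.5 in TM1 and 26.5, 32.6 and 32.9 in TM2.

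Stress and hormone lists held called genes in both directions. Of 27 measured abscisic acid, cold and drought genes, 2 were higher (7.41%) and 1 lower (3.70%), against 0.792% and 0.741% of all genes. The paper had already reported both higher genes as bolting-associated from these data, so the higher share is not independent support. The higher genes were *DTX50*, an exporter of abscisic acid, with FPKM values of 22.1, 19.8 and 21.0 in WT, 76.0, 67.4 and 65.4 in TM1 and 52.3, 58.3 and 56.6 in TM2, and the AP2/ERF gene *ERF054*, with FPKM values of 17.9, 20.4 and 18.6 in WT, 76.6, 90.8 and 84.9 in TM1 and 113, 104 and 112 in TM2, which was higher at all 4 time points. The lower gene was *COR15A*, a chloroplast protein gene of cold acclimation, with FPKM values of 299, 283 and 302 in WT, 117, 97.2 and 106 in TM1 and 110.4, 90.6 and 99.1 in TM2, and its neighbour in sequence *COR15B* had log2 changes of -0.71 in TM1 and -1.17 in TM2. The dehydrin genes *COR47* and *ERD10* were higher in all TM libraries by less than 2-fold, with log2 changes of 0.34 in TM1 and 0.45 in TM2 and of 0.34 in TM1 and 0.40 in TM2. *GolS2*, a galactinol synthase of the stress response chosen after its values were seen, had FPKM values of 44.6, 41.3 and 38.8 in WT, 156, 109.6 and 133 in TM1 and 139, 99.3 and 100.5 in TM2 and was called higher. Of 11 ethylene genes, the ERF gene *ESE3* was lower (9.09%), and of 17 auxin response genes the repressor gene *IAA3* was lower (5.88%). *ESE3* lost its call without WT replicate C (-0.91 in TM1) or TM1 replicate C (-0.95), and *IAA3*, which overlaps AT1G04230 on the other strand, without WT replicate C (-0.95) or TM1 replicate B (-0.90). None of 14 cytokinin response and 15 gibberellin genes was called, which is near the 1.53% of all genes.

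Carbon and sulfur lists held 4 called genes, all lower, where 0.741% of all genes were called lower. Of 20 measured starch and trehalose genes 1 was called, *TPS8*, a class II trehalose phosphate synthase, with FPKM values of 248, 239.8 and 226 in WT, 103, 116 and 94.1 in TM1 and 77.1, 89.3 and 92.2 in TM2. The list of 13 energy-signalling and dark-induced genes had 2 lower members, the bZIP factors *BZIP61* and *BZIP34*. The paper describes this pair as heterodimer partners in pollen development, and no other member was called, so the calls do not speak for energy signalling. *BZIP61* had FPKM values of 34.0, 30.4 and 25.7 in WT, 7.47, 8.19 and 7.39 in TM1 and 9.45, 7.53 and 8.50 in TM2. *BT5*, a BTB and TAZ domain protein gene chosen after its values were seen, had FPKM values of 11.6, 8.73 and 8.65 in WT, 3.14, 2.404 and 2.15 in TM1 and 2.46, 2.30 and 1.78 in TM2 and overlaps AT4G37608 on the other strand. In the sulfur deficiency list 1 of 12 measured genes was called lower, and the median was -0.56 in TM1 and -1.22 in TM2, the lowest of the lists in both isolates. A further member of the list as written, AT1G04770 (entered as *SDI2*), was left out of these counts because the gene table does not give that name to it. AT1G04770 was itself called lower, with FPKM values of 79.2, 73.2 and 77.1 in WT, 31.0, 34.2 and 29.9 in TM1 and 14.3, 14.8 and 17.5 in TM2, and with it the list would hold 2 called genes among 13. The gene in the counts, *LSU3*, had FPKM values of 47.9, 49.3 and 38.1 in WT, 17.5, 12.6 and 27.4 in TM1 and 4.42, 5.94 and 3.01 in TM2 and lost its call without TM1 replicate B (-0.999 in TM1, adjusted p = 0.0515). *APR3*, the adenylylsulfate reductase of sulfate assimilation, had mean FPKM of 107 in WT, 67.9 in TM1 and 32.7 in TM2, and its decrease passed 2-fold in TM2 only. *ATG8G*, a ubiquitin-like protein gene of autophagosomes, was the 1 gene called lower among 12 autophagy genes, with mean FPKM of 2.99 in WT, 0.143 in TM1 and 0.592 in TM2. Its call ended with a pseudocount of 0.1 (adjusted p = 0.122 in TM2) and with one of 5 (log2 change of -0.63 in TM1 and -0.51 in TM2).

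**Figure D4:**
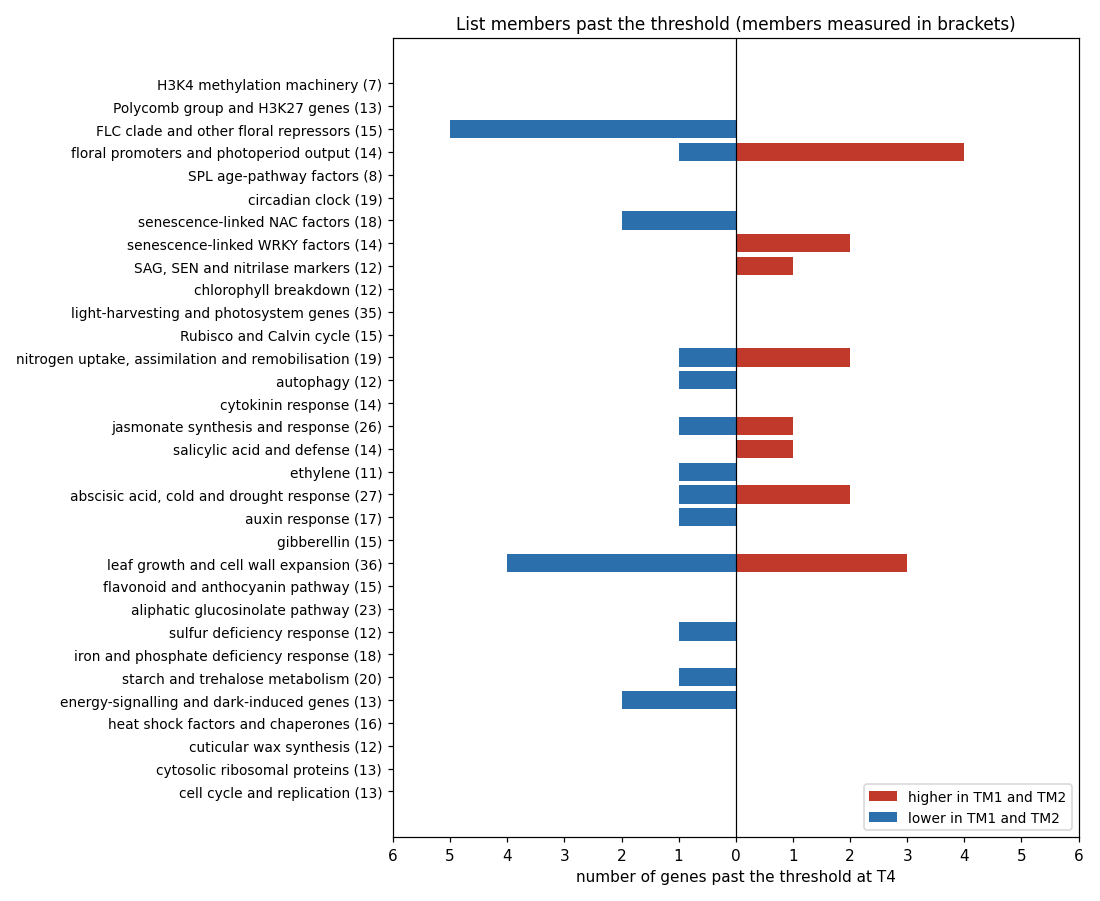
Number of members past the threshold at T4 in each gene list, to the right where higher and to the left where lower in both isolates, with the number of measured members in brackets. Floral repressors have 5 lower members and floral promoters 4 higher, and 16 of the 32 lists have none.

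The remaining lists held 0 called genes: 8 SPL age-pathway factors, 19 circadian clock genes, 15 flavonoid and anthocyanin genes, 23 aliphatic glucosinolate genes, 18 iron and phosphate deficiency genes, 16 heat shock factors and chaperones, 12 cuticular wax genes, 13 cytosolic ribosomal protein genes and 13 cell cycle and replication genes. With 1.53% of all genes called, 0 in lists of this size is near the share over all genes. The medians of these lists ranged from -0.26 to 0.07 in TM1 and from -0.28 to 0.27 in TM2. *SPL4*, a factor of the age pathway to flowering, missed the 2-fold limit in TM1 only, with FPKM values of 49.5, 56.1 and 53.7 in WT, 97.7, 95.5 and 89.7 in TM1 and 114, 104 and 121 in TM2 and log2 changes of 0.82 in TM1 and 1.08 in TM2. Clock genes bear on harvest time, and *TOC1*, an evening gene of the clock, had mean FPKM of 154 in WT, 163 in TM1 and 126 in TM2.

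**Figure D5:**
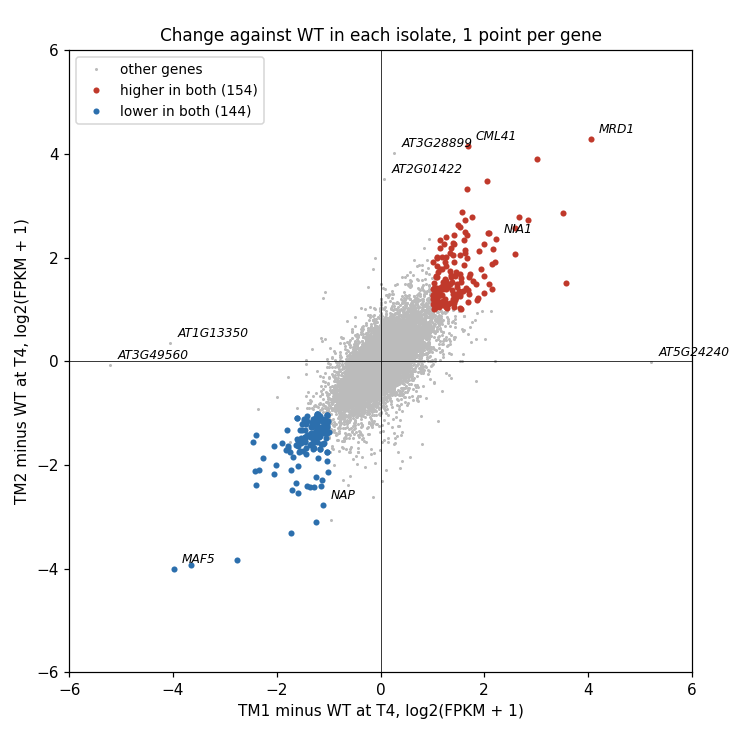
Log2 change against WT at T4 in TM1 (horizontal) and TM2 (vertical), 1 point per gene, with the 154 genes higher and 144 lower in both isolates in colour. AT5G24240, AT3G49560 and AT1G13350 lie on the horizontal axis far from 0, and AT3G28899 and AT2G01422 on the vertical axis.

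TM1 and TM2 differed from each other in 212 genes (1.09% of all genes), 71 higher and 141 lower in TM2, of which 22 were among the 298. The 4 largest in each direction were picked by this difference, which is given as a description. AT5G24240, a phosphatidylinositol 4-kinase gamma-like gene, had FPKM values of 0.390, 0 and 0.112 in WT, 43.6, 46.2 and 37.1 in TM1 and 0.286, 0.164 and 0 in TM2. AT3G49560, of a mitochondrial import protein family, had FPKM values of 59.0, 57.4 and 60.2 in WT, 0.726, 0.817 and 0.308 in TM1 and 61.7, 54.7 and 52.9 in TM2, and the protein kinase gene AT1G13350 had FPKM values of 94.8, 106 and 117 in WT, 5.001, 6.00 and 5.18 in TM1 and 155, 120.4 and 134 in TM2. In these 3 genes TM1 was far from both other groups. TM2 overlapped WT in AT5G24240 and AT3G49560, and lay above it in AT1G13350. AT3G28899 and AT2G01422 were the reverse, with mean FPKM of 0 in WT, 0.244 in TM1 and 15.6 in TM2 and of 0.528 in WT, 0.609 in TM1 and 16.5 in TM2. *SAUR29*, *PP2-B13* and the VQ motif gene AT1G21326 were past the threshold in TM2 and not in TM1, with log2 changes in TM1 of -0.15, 0.38 and 0.57 and in TM2 of -2.61, -2.06 and -1.84. The change was larger in TM2 than in TM1 in 177 of the 298 called genes.

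Set against the other harvests, the same rule gave 169 higher and 101 lower genes at T0 (0.869% and 0.520% of all genes), 338 and 87 at T2 (1.74% and 0.448%), and 81 and 116 at T6 (0.417% and 0.597%). Of the 298 genes at T4, 139 were past the threshold at T4 only, 80 higher and 59 lower, and 25 at all 4 time points, 12 higher and 13 lower and each in 1 direction throughout. These 25 included *MRD1*, *ERF53*, *ERF054*, *SEP3*, *FUL*, *PSK4*, *PIP2;3* and *EXL4* among the higher and *MAF4*, *MAF5*, *GER3*, *MEMB12* and AT2G40960 among the lower. *GER3*, a germin-like protein gene, had FPKM values of 16.2, 14.9 and 16.4 in WT, 4.35, 3.88 and 2.46 in TM1 and 4.43, 3.94 and 5.602 in TM2 at T4, and its mean log2 difference was -1.76 (T0), -1.397 (T2), -1.74 (T4) and -1.75 (T6). *MEMB12*, a membrin of vesicle transport, had FPKM values of 24.9, 27.5 and 28.5 in WT, 10.7, 9.66 and 12.2 in TM1 and 11.2, 8.46 and 7.84 in TM2, with differences of -1.72 (T0), -1.66 (T2), -1.36 (T4) and -1.38 (T6). Neither gene overlapped between WT and TM at T4, as in 140 of the 144 genes called lower. By the interaction contrast, the TM effect at T4 differed from that at T2 in 784 genes (4.03% of all genes), from that at T0 in 648 (3.33%) and from that at T6 in 35 (0.180%). Each contrast used WT and TM pools of both time points. Of the 154 higher genes, 47 had an effect that differed from T2, and of the 144 lower genes 57.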

How the data were processed

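RNA of leaf 6 was sequenced as directional 3′ BrAD-seq libraries. The authors used Rsubread to align and count reads on TAIR10 genes, turned the counts into FPKM values in NOISeq, and removed weak genes with HTSFilter; the deposited FPKM table holds 19437 genes and 36 libraries. Versions and the strand setting of the counting are not given in the sources used here. Of the 298 called genes, 46 overlap another measured gene, 41 on the other strand and 6 on the same strand. Among the 41 are *ORA47*, *SEP1*, *GSTU7* and AT4G10910, and *FLC* overlaps AT5G01675, which was not measured, on the other strand. Reads of such pairs may not be told apart.

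Differences were tested on the log2(FPKM + 1) scale by limma (version 3.58.1, R version 4.3.3), using 12 group means over all 36 libraries, a variance trend and Benjamini-Hochberg adjustment over all genes. A gene was called at an adjusted p under 0.05 and at least 2-fold in both isolates. Single genes were also tested by an exact two-sided permutation of 6 against 3 libraries. For depth, whole reads were recovered from the FPKM steps for all 19437 genes (tolerance 0.0005). On simulated data for this comparison with 19437 genes, 191 of 200 genes changed by 1.5 on the log2 scale were recovered, and 0 unchanged genes were called. The simulation drew independent normal noise with the spread between libraries of a pool around the WT mean at T4. Changed genes were taken only from those above a minimum WT level. It held no differences between pools of plants, so it gives no rate of false calls for the real comparison.

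Members and lists were chosen with earlier results of these data known. Shares of called genes in a list are therefore descriptions and not independent support. Genes were named by rule: the targeted genes, the 12 largest changes in each direction, up to 8 called members of a list (otherwise the 2 most abundant), a few defining genes, the 6 largest differences from each other time point and the 4 largest isolate differences in each direction. The 12 were taken only from called genes whose TM libraries all lay beyond all WT libraries. *LHP1*, *NIR1*, *GLN1;1*, *NRT1.7*, *COR15B*, *COR47*, *ERD10*, *LHCB2.2*, *LHCB2.4*, *LHCB3*, *LHCB4.3*, the genes of opposite sign and the families noted in the text were chosen after their values were seen. Of 657 list genes, 12 were left out because the gene table does not give their names, 1 of them called (AT1G04770). Of the other 645, 567 are in the table.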

Additional observations from a re-analysis of the deposited data

Results flagged for a closer look

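Each result here differed between time points by limma's interaction contrast, that is the mean TM effect at T4 minus that at another time. Such differences passed the threshold in 784 genes against T2, in 648 against T0 and in 35 against T6.

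Against T2, the named genes with the largest differences on the log2 scale were AT4G12490 (5.45), *RCI2B* (-4.99), *NAP* (-3.31), *ORA47* (-3.31), the fatty acid elongase gene *KCS2* (-3.11) and AT2G20670 (-3.04). Against T0 they were AT2G20670 (-4.10), the NAC family gene AT3G12910 (3.31), AT4G12490 (3.22), *ORA47* (-3.16), *TZF5* (-3.09) and *NAP* (-3.03).

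Against T6 the differences were smaller, with *PR5* at 1.62, *ELI3-2* at -1.502, *ASN1* at -1.46, AT2G20670 at -1.44, *SEN1* at -1.43 and the protein kinase gene *WAG1* at 1.43.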

How the results depend on the processing

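The count of 298 genes (154 higher, 144 lower) moved most with the pseudocount and the fold limit. A pseudocount of 5 gave 86 genes (49 higher, 37 lower), voom on recovered reads 453 (242 higher), a 1.5-fold limit 924 (472 and 452), no fold limit 1605 (796 and 809), and the mean of TM1 and TM2 against WT 507 (270 and 237). A pseudocount of 5 also gave 285 genes that differed from T2, 206 from T0, 10 from T6 and 78 between the isolates. Leaving out 1 library at a time gave 279 to 301 called genes, 146 to 160 higher and 133 to 149 lower. No result reversed. Of 75 named genes called, 34 kept the call under every alternative and 16 lost it in at least 1 leave-one-out fit. A pseudocount of 5 ended 36 calls: *FLC*, *MAF4*, *TEM1*, *TEM2*, *FT*, *SEP1*, *NAP*, *RD26*, *TZF5*, *ASN1*, *NRT3.1*, *ATG8G*, *BZIP34*, *BT5*, *PDF1.2*, *PAD3*, *ESE3*, *IAA3*, *EXPA3*, *XTH4*, *XTH9*, *WRKY27*, *GSTU1*, *GSTU4*, *GSTU7*, *GSTU24*, *FLA1*, *FLA2*, *FLA9*, *AGP21*, *AGP26*, *CML11*, *CML41*, AT5G46295, AT5G45560 and AT4G10910. A pseudocount of 0.1 ended those of *RCI2B*, *LSU3*, *AGP12*, *ATG8G* and *XTH9*, median ratio scaling those of *PAD3* and *GSTU7*, quantile normalization that of *GSTU7*, and a fit of T4 libraries alone that of *PDF1.2*. Libraries of 1 letter did not deviate together (r of -0.0559 to 0.0939 for 9 pairs), so the letters do not pair samples. With the letter as a replicate block, 298 genes were called (154 higher, 144 lower), and no named call changed. With 1 pool per line, differences between plants cannot be told apart from differences between lines, and genes of few reads limit precision.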
